A study of Mus musculus with 10 samples.

Results

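The secreted Wnt ligands, their Frizzled receptors and their secreted antagonists were followed in the mouse embryonic ovary over 5 stages. The members were all probe sets whose only annotated gene symbol was Wnt, Fzd, Sfrp or Dkk with a number and an optional letter, or Frzb or Wif1. This gave 39 of the 18193 genes with a symbol of their own on the array, through 76 of its 45101 probe sets: 19 ligands, 10 receptors and 10 antagonists. The study measured 10 Affymetrix mouse genome arrays, 2 independent ovary preparations at each stage. The stages, as days of gestation, were E11.5 and E12.5, then E14.5 and E16.5, and last E18.5. All preparations were labelled as whole embryonic ovary, with no treatment or mutant allele. The labels used here give no strain and do not say how many embryos made up a preparation or whether the neighbouring mesonephros was removed. The comparisons ask how the set changes as the ovary develops, each time with the later stage set against the earlier one.

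Wnt proteins are lipid-modified secreted ligands that bind Frizzled receptors. With an Lrp co-receptor a Wnt can stabilise beta-catenin, which acts with Tcf and Lef factors in the nucleus (canonical signalling), and with other co-receptors some Wnts act without beta-catenin. Secreted Frizzled-related proteins (Sfrp and Frzb) and Wif1 bind Wnts outside the cell, and Dkk1 binds the Lrp co-receptors. In the mouse ovary, Wnt4 and the Wnt-enhancing ligand Rspo1 are needed for female development of the somatic cells.

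Values are scaled signals, the deposited intensities after each array was brought to the same 75th percentile of 137.5. A probe set counted as above background where its signal passed the 95th percentile of 27 control probe sets with no added target on the same array, a level between 18.9 and 31.9 on the arrays used. E12.5 replicate 2 stood apart and was not used: it correlated with the other arrays at 0.413 to 0.465, against 0.874 to 0.965 among the rest. E12.5 replicate 1 had an Actb 3′ to 5′ signal ratio of 10.6, while the other 8 arrays in use lay between 1.51 and 2.22. With 1 usable array, E12.5 entered no contrast between 2 stages, though an alternative F test over all 5 stages used it. Signals of different probe sets are not on a common scale, and levels of a gene are compared only between stages for 1 probe set. The sums of cell type marker genes given below run over several probe sets. Such a sum is compared only between stages and weighs its brightest probe sets most. By the hybridization date in the experiment files the arrays fell into 3 groups, called wash runs here. The E12.5 arrays shared a run with those of E11.5, and the E16.5 arrays with those of E14.5, while E18.5 had a run to itself. Among the contrasts tested, stage and wash run therefore cannot be told apart except for E16.5 against E14.5. With whole-ovary RNA, fewer cells of a type and less RNA per cell cannot be told apart either.

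Of the 39 genes, 20 were above background at all 5 stages by at least 1 probe set: 8 ligands, 8 receptors and 4 antagonists. The 8 ligands were Wnt4, Wnt5a, Wnt5b, Wnt6, Wnt7a, Wnt7b, Wnt9a and Wnt11. Of the 10 Frizzleds, Fzd8 missed a stage and Fzd9 was above background on both arrays of no stage, and the other 8 were above it throughout. The 4 antagonists were Dkk3, Sfrp1, Sfrp2 and Sfrp5. Another 14 genes were above background at some stages, among them Dkk1 and Frzb at E11.5, E12.5 and E14.5, and Wnt9b at the same 3 stages. The 5 genes detected at no stage were Wnt1, Wnt3, Wnt16, Fzd9 and Wif1. A filter on low values, which asked for a signal of at least 46.3 on 2 of the 9 arrays, left 44 probe sets and 26 genes for testing: 10 ligands, 9 receptors and 7 antagonists. The 13 genes not tested were Wnt1, Wnt2, Wnt2b, Wnt3, Wnt8a, Wnt8b, Wnt9b, Wnt10b, Wnt16, Fzd9, Dkk2, Dkk4 and Wif1.

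**Figure D1:**
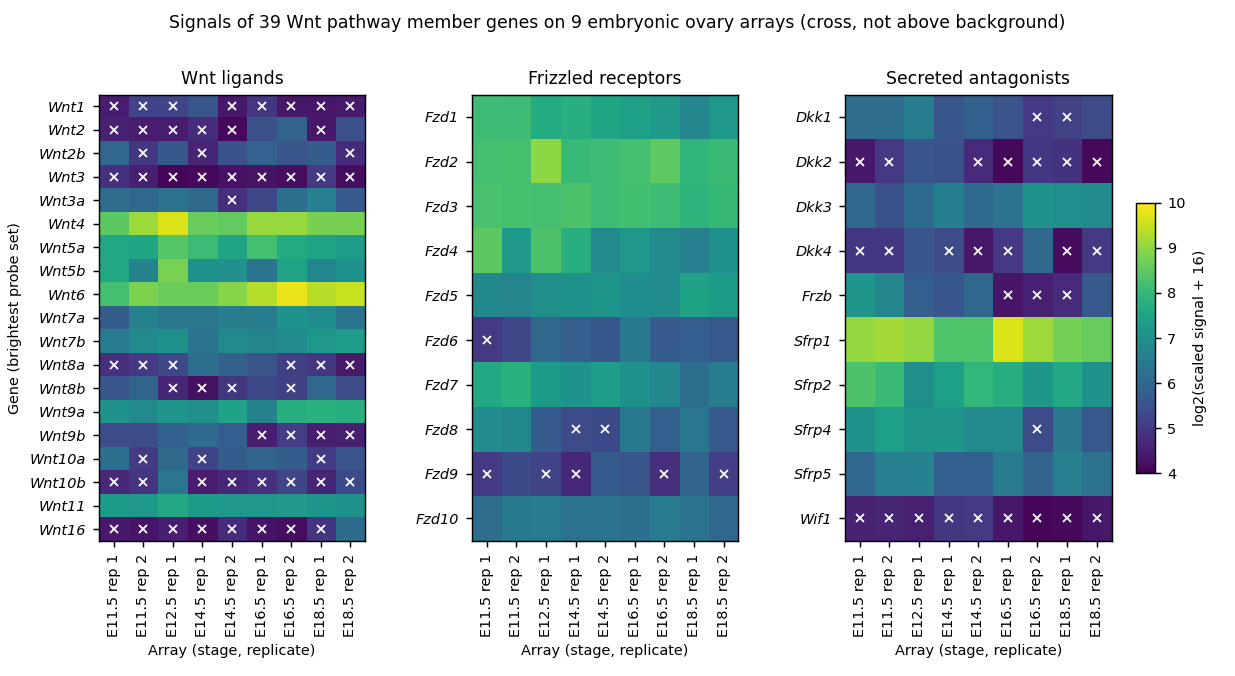
Colour gives log2 of the scaled signal plus 16 for the brightest probe set of each of the 39 genes (rows, grouped as ligands, receptors and antagonists) on the 9 arrays used (columns, by stage), and a cross marks a signal not above background. Wnt1, Wnt3, Wnt16 and Wif1 carry crosses on most or all arrays, Frzb carries them on 3 of the 4 arrays of E16.5 and E18.5, and the Fzd1 and Fzd7 rows darken with stage while the Wnt6 row brightens.

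Across the 4 replicated stages, which are all but E12.5, 6 of the 26 tested genes changed by their brightest probe set (limma F test, adjusted p under 0.05): Wnt6, Fzd1, Fzd7, Fzd8, Sfrp1 and Frzb. Brightest means the highest mean of log2(signal + 16) over the 9 arrays. By the mean signal itself another probe set would stand for Wnt5a, and the count would be 7. The 6 are 23.1% of the members, where 27.7% of all 13305 genes tested changed, so the share is near the background and is not a result about the set. Counted over probe sets, 14 of 44 changed, or 31.8%, where 24.4% of all 27510 did. Between E18.5 and E11.5, 2 genes rose, Wnt6 and Dkk3, which is 7.69% of the members against a background of 13.3%. Over the same span 5 genes fell, Fzd1, Fzd7, Frzb, Sfrp2 and Sfrp4, which is 19.2% against a background of 16.4%. Over probe sets, 13 of 44 changed in either direction between these stages, or 29.5%, where 26.2% of all did. With the probe set of highest mean signal, Wnt5a would be added to those that fell, making 6. The median log2 difference of the 26 genes was -0.20, beside -0.00 for all genes tested. It was 0.02 for the 10 ligands, -0.30 for the 9 receptors and -0.85 for the 7 antagonists.

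**Figure D2:**
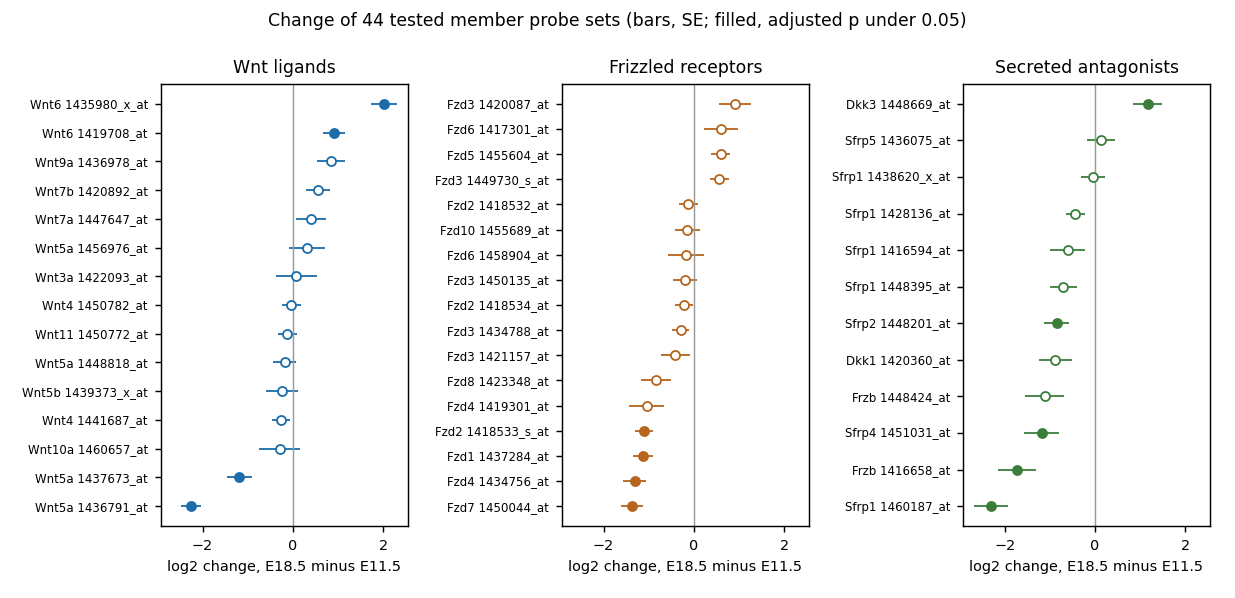
Log2 difference in scaled signal (with 16 added) between E18.5 and E11.5 for the tested member probe sets, grouped by role, with bars of 1 standard error and filled points where the adjusted p was under 0.05. The Wnt6 probe sets and Dkk3 lie to the right of 0 and passed the test, and probe sets of Wnt5a, Fzd1, Fzd2, Fzd4, Fzd7, Sfrp1, Sfrp2, Sfrp4 and Frzb lie to the left and passed it.

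Promoter sequence is shown for the 4 genes whose brightest probe set passed both the test over the stages and that of E18.5 against E11.5, to show what their upstream windows share and where they differ. RefSeq windows of the GRCm38.p6 build were used for 27 of the 39 genes, in 30 windows, and the 250 bases before the start site are printed 5′ to 3′ on the strand of the gene for Wnt6, which rose, and for Fzd7, Fzd1 and Frzb, which fell. Capitals mark matches on either strand to 4 motifs: the GC box (GGGCGG), the CCAAT box (CCAAT), the TATA box (TATAAA) and Tcf/Lef-type letters (AACAAAG or ATCAAAG or TACAAAG or TTCAAAG).
Wnt6, chr1:74771642-74771891, plus strand: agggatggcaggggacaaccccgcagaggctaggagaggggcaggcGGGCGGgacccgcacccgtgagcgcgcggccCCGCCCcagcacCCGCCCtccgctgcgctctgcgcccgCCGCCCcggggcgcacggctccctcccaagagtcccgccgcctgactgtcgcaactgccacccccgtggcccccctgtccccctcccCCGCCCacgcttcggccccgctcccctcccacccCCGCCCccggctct
Fzd7, chr1:59481897-59482146, plus strand: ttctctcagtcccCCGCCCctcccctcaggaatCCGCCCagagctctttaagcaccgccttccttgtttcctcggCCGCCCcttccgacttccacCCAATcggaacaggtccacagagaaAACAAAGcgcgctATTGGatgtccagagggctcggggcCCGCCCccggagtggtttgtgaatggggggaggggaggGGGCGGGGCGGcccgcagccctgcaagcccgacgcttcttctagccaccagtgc
Fzd1, chr5:4758217-4758466, minus strand: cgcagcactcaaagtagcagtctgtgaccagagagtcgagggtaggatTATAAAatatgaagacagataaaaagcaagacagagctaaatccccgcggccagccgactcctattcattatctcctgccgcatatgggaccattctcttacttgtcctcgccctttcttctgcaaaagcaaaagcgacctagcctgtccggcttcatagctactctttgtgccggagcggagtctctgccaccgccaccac
Frzb, chr2:80447397-80447646, minus strand: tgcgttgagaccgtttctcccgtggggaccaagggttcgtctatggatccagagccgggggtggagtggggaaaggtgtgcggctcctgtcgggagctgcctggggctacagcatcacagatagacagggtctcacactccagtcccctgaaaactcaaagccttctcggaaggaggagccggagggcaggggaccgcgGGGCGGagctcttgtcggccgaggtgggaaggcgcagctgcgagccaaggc
The Wnt6 window held 6 GC boxes and none of the other motifs. The Fzd7 window also held 6 GC boxes, of which the last pair share 1 base, with 2 CCAAT boxes and 1 Tcf/Lef-type match. Fzd1, which fell like Fzd7, had no GC box but 1 TATAAA match, at -202 to -197 from the start site, and Frzb had 1 GC box. Over the 30 member windows, 22 held a GC box, where 32.7% of 32851 RefSeq windows did. The member windows were also richer in CG dinucleotides, with a median of 21.5 where all windows had 6. Whether the GC boxes go with that CG content alone was not tested. Tcf/Lef-type letters stood in 4 of the 30, where 14.8% of all windows held them, CCAAT in 10 where 33.8% did, and TATAAA in 5 where 12.4% did. These matches are letters in a window and were not set against any binding data.

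Among the ligands, Wnt6 was higher late in gestation. Wnt6 is a ligand of epithelia in many mouse organs, and it lies next to Wnt10a on chromosome 1. Its probe set 1419708_at had scaled signals of 285 and 436 at E11.5, 379.7 at E12.5, 388 and 463 at E14.5, 624 and 895 at E16.5 and 641 and 709.6 at E18.5. Both E18.5 arrays lay above both E11.5 arrays, and the highest array was an E16.5 one. The E18.5 minus E11.5 log2 difference was 0.90 ± 0.24 (± standard error, 2 arrays a stage; limma, adjusted p = 0.0138). The second Wnt6 probe set, 1435980_x_at, whose x suffix marks probes that can match other sequences, had 95.7 and 108 at E11.5, 204 at E12.5, 235 and 164 at E14.5, 283 and 575 at E16.5 and 481 and 439.7 at E18.5. It was also higher at E18.5, by 2.02 ± 0.28 (adjusted p = 0.000252), with no overlap between the stages. For 1419708_at the call was lost without E11.5 replicate 1 (adjusted p = 0.103), without E18.5 replicate 1 (0.0655) or without E18.5 replicate 2 (0.1), while 1435980_x_at kept it without any 1 of these arrays. Wnt10a, its neighbour, was dim: 57.4 and 16.7 at E11.5, 51.2 at E12.5, 21.1 and 38.7 at E14.5, 44.4 and 38.8 at E16.5 and 17.4 and 31.9 at E18.5, with adjusted p = 0.663 over the same span.

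Wnt5a, a ligand best known for signalling without beta-catenin, had 4 tested probe sets that did not move together. Probe set 1436791_at had scaled signals of 338 and 316 at E11.5, 399 at E12.5, 235 and 269 at E14.5, 194 and 137 at E16.5 and 62.4 and 50.7 at E18.5. Its 2 E18.5 arrays were the lowest of the 9, and the replicated stages did not overlap from each to the next. The E18.5 minus E11.5 difference was -2.25 ± 0.22 (adjusted p = 1.5e-05), and part of the fall lay between E18.5 and E16.5, at -1.31 ± 0.22 (adjusted p = 0.014). That late step was no longer called without E16.5 replicate 1 (adjusted p = 0.179), E18.5 replicate 1 (0.0904) or E18.5 replicate 2 (0.149), or with no intensity trend in the variance (0.0594). Probe set 1437673_at fell over the whole span as well, with 31.6 and 46.3 at E18.5 against 111 and 105 at E11.5, a difference of -1.19 ± 0.28 (adjusted p = 0.00728, and 0.0505 without E11.5 replicate 1 or 0.0669 without E18.5 replicate 1). Probe set 1448818_at, the highest by mean log2 signal though not by mean signal, had 178 and 171 at E11.5, 328 at E12.5, 260.1 and 166 at E14.5, 279.7 and 187 at E16.5 and 165 and 139.7 at E18.5. Its E18.5 minus E11.5 difference was -0.18 ± 0.25 (adjusted p = 0.626), and the dim 1456976_at gave 0.32 ± 0.40 (adjusted p = 0.586). Whether the 4 probe sets read different transcript ends was not tested, and the gene counts use 1448818_at, so they do not hold the Wnt5a calls.

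Wnt4, the ligand needed for ovary development in the mouse, was bright at every stage and passed no test among the 4 replicated stages. Probe set 1450782_at had 342 and 545 at E11.5, 807 at E12.5, 374 and 358 at E14.5, 525 and 525 at E16.5 and 422 and 422 at E18.5. Probe set 1441687_at had 291 and 374 at E11.5, 525 at E12.5, 239 and 269.7 at E14.5, 412 and 346 at E16.5 and 269 and 277 at E18.5. In both, the single E12.5 array was the highest of the 9, and the E16.5 arrays lay above those of E14.5 and of E18.5. The E16.5 minus E14.5 differences were 0.50 ± 0.22 and 0.54 ± 0.20 (adjusted p = 0.225 and 0.156), and the E18.5 minus E11.5 differences were -0.03 ± 0.22 and -0.26 ± 0.20 (adjusted p = 0.928 and 0.368).

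The other ligands detected throughout passed no test among the 4 replicated stages. Wnt9a, a ligand of joint formation in the mouse, had 118 and 101 at E11.5, 124 at E12.5, 110.1 and 160.1 at E14.5, 86.1 and 203 at E16.5 and 213 and 204 at E18.5. Both E18.5 arrays lay above both E11.5 arrays, and the difference was 0.84 ± 0.31 (adjusted p = 0.0616). Wnt11, which guides branching of the mouse ureteric bud, had 138 and 131 at E11.5, 180.5 at E12.5, 138 and 130.2 at E14.5, 131 and 135 at E16.5 and 126 and 119 at E18.5. Outside E12.5 its 8 arrays lay within 118.9 and 138.5, the narrowest spread among these ligands. Wnt7b, a ligand of lung growth and of vessel regression in the mouse eye, had 74.3 and 102 at E11.5, 119.8 at E12.5, 61.6 and 101 at E14.5, 91.1 and 102 at E16.5 and 131 and 139.7 at E18.5 (E18.5 minus E11.5 0.55 ± 0.26, adjusted p = 0.135). Its E18.5 arrays were the 2 highest. For Wnt7a, needed for patterning of the female ducts in the mouse, the E18.5 minus E11.5 difference was 0.41 ± 0.33 (adjusted p = 0.399), and for Wnt5b, a close relative of Wnt5a, it was -0.24 ± 0.36 (adjusted p = 0.655). The Wnt7a value is that of 1447647_at, above background on all 9 arrays, while 1423367_at and 1458334_at of this gene were above it on 0. Wnt3a, a canonical ligand, was above background on both arrays of E11.5, E16.5 and E18.5 and on 1 of 2 at E14.5, with adjusted p = 0.92 over the span.

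Among the Frizzled receptors, Fzd1 and Fzd7 fell over the whole span. Fzd1 (1437284_at) had scaled signals of 264 and 259.9 at E11.5, 191 at E12.5, 203 and 169 at E14.5, 154 and 132 at E16.5 and 93.7 and 131 at E18.5. No array of a later replicated stage reached the level of an earlier one. The E18.5 minus E11.5 difference was -1.13 ± 0.22 (adjusted p = 0.00232). Fzd7, a receptor for canonical and other Wnts in stem and progenitor cells of several mouse tissues, had 181 and 207 at E11.5, 138 at E12.5, 116 and 147 at E14.5, 120.3 and 96.1 at E16.5 and 55.4 and 75.5 at E18.5 with 1450044_at. Its E18.5 arrays were the 2 lowest of the 9, and the difference from E11.5 was -1.38 ± 0.24 (adjusted p = 0.00104). Neither call was lost when any 1 of the 9 arrays was left out.

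**Figure D3:**
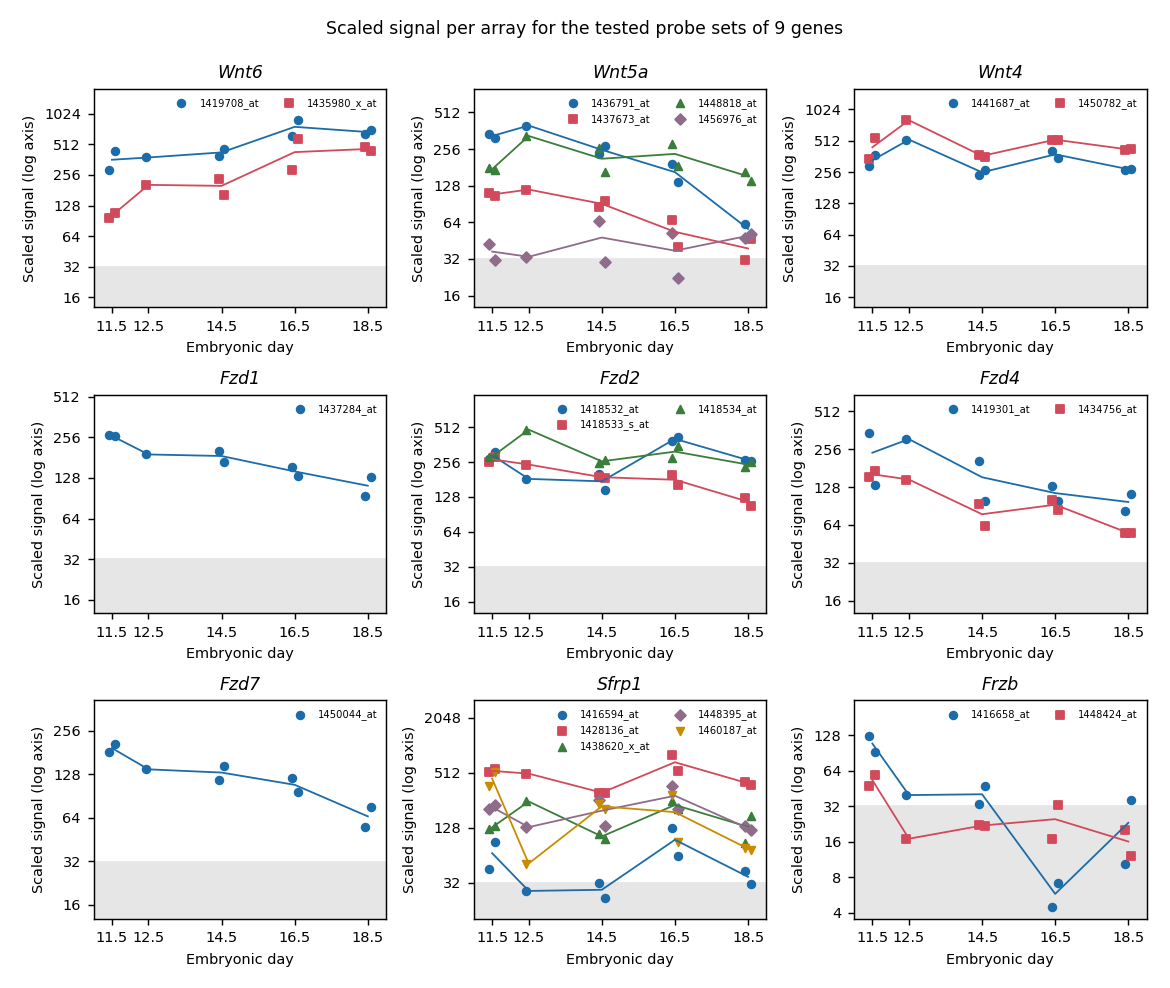
Scaled signals (log axis) on each of the 9 arrays by stage for named member genes, with a line through the arithmetic stage means of each probe set and a grey band up to the highest background level of an array, 31.9. Wnt6 probe sets are higher at E18.5 than at E11.5, Fzd1, Fzd7 and Frzb are lower, and the probe sets of Wnt5a, Fzd2 and Sfrp1 separate from each other with stage.

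Fzd4 and Fzd2 fell over the span with some of their probe sets. Fzd4, which also binds the non-Wnt ligand Norrin in the mouse retina, had 153 and 170.0 at E11.5, 147 at E12.5, 93.2 and 62.5 at E14.5, 101 and 84.7 at E16.5 and 55.5 and 55.1 at E18.5 with 1434756_at. Both E18.5 arrays lay below all others, with a difference from E11.5 of -1.31 ± 0.25 (adjusted p = 0.00177). The brighter Fzd4 probe set, 1419301_at, had 82.4 and 112 at E18.5 against 346 and 133 at E11.5, and its difference of -1.05 ± 0.38 missed the threshold (adjusted p = 0.0575). Its 2 E11.5 arrays lay far apart, although both were above the E18.5 arrays. Fzd2, a receptor used by Wnt5a in the mouse, had 3 tested probe sets. Probe set 1418533_s_at, whose s suffix marks probes shared by several transcripts, had 257 and 283 at E11.5, 243 at E12.5, 191 and 188 at E14.5, 198 and 162 at E16.5 and 126 and 108 at E18.5. It fell over the span, with a difference of -1.11 ± 0.20 (adjusted p = 0.00163), with no overlap. Probe set 1418532_at had 273 and 313 at E11.5, 183 at E12.5, 203 and 146 at E14.5, 390.1 and 419.9 at E16.5 and 268 and 263 at E18.5. It was highest on the E16.5 arrays and rose at E16.5 against E14.5, by 1.16 ± 0.21 (adjusted p = 0.0137), while its E18.5 minus E11.5 difference was -0.13 ± 0.21 (adjusted p = 0.681). The E16.5 call was lost without E14.5 replicate 2 (adjusted p = 0.128) or E16.5 replicate 2 (0.141), or with no intensity trend (0.0714). The brightest, 1418534_at, passed no test over the 4 stages, with -0.21 ± 0.19 over the span (adjusted p = 0.446).

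Fzd8, another receptor of the family, was the only member gene called between E14.5 and E11.5 by its brightest probe set. Its probe set 1423348_at had 104 and 95.8 at E11.5, 37.6 at E12.5, 25.1 and 24.9 at E14.5, 70.6 and 41.0 at E16.5 and 65.5 and 35.2 at E18.5. Neither E14.5 array was above background, so the level there has only a bound: it was at least 3.76-fold lower at E14.5 than at E11.5 (fitted difference -1.50 ± 0.34, adjusted p = 0.0217). At E16.5 and E18.5 both arrays were again above background, and the E18.5 minus E11.5 difference was -0.84 ± 0.34 (adjusted p = 0.0818). The E14.5 call was lost without E11.5 replicate 1 (adjusted p = 0.128), E11.5 replicate 2 (0.0844), E14.5 replicate 1 (0.111) or E14.5 replicate 2 (0.0744), or with no filter on low values (0.0667). Fzd3, needed for axon guidance in the mouse, was steady with its brightest probe set, 1434788_at, at 292 and 292 at E11.5, 282 at E12.5, 302 and 266 at E14.5, 273 and 265 at E16.5 and 225 and 245 at E18.5. Its 5 tested probe sets had E18.5 minus E11.5 differences between -0.41 and 0.91, 2 above 0 and 3 below, and none passed the test. Fzd5, a receptor needed for eye and placental vessel formation in the mouse, had 159 and 138 at E18.5 against 95.9 and 90.9 at E11.5 (adjusted p = 0.0599). Fzd6, which orients hair follicles in the mouse, and Fzd10 passed no test, with adjusted p = 0.252 and 0.785 for the tested probe sets of Fzd6 and 0.728 for Fzd10.

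Among the antagonists, Frzb was lower late in gestation. Frzb is a secreted Frizzled-related protein first known from cartilage. Its probe set 1416658_at had 126 and 91.3 at E11.5, 39.8 at E12.5, 33.1 and 47.7 at E14.5, 4.46 and 7.14 at E16.5 and 10.4 and 36.0 at E18.5. Neither E16.5 array and only 1 of the 2 E18.5 arrays was above background, and all arrays from E14.5 on lay below both E11.5 arrays. The E18.5 minus E11.5 difference was -1.74 ± 0.42 (adjusted p = 0.00823), with the call lost without E11.5 replicate 1 (adjusted p = 0.0914) or E18.5 replicate 1 (0.0729). The other Frzb probe set, 1448424_at, was above background on both E11.5 arrays, at 47.8 and 58.6, and on neither E18.5 array, which makes it at least 2.23-fold lower at E18.5 (adjusted p = 0.0723). It pointed the same way as the first but missed the threshold.

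Sfrp1, a secreted Frizzled-related protein that binds Wnts, had 5 tested probe sets, and 3 of them changed over the 4 stages. The brightest, 1428136_at, had 516 and 559.5 at E11.5, 502 at E12.5, 309 and 311 at E14.5, 797 and 541 at E16.5 and 410.2 and 374 at E18.5. The E14.5 arrays were the 2 lowest and the E16.5 pair included the highest. It rose at E16.5 against E14.5 by 1.04 ± 0.21 (adjusted p = 0.0218), and its E18.5 minus E11.5 difference was -0.44 ± 0.21 (adjusted p = 0.139). The E16.5 call missed the threshold without any 1 array from E14.5 on: replicate 1 and replicate 2 of E14.5 gave adjusted p = 0.0955 and 0.131, those of E16.5 0.0829 and 0.0548, and those of E18.5 0.0545 and 0.0543. With no intensity trend it was 0.0958. Probe set 1460187_at took another course, with 363 and 521 at E11.5, 51.8 at E12.5, 232 and 207 at E14.5, 291 and 88.3 at E16.5 and 77.3 and 73.3 at E18.5. It fell at E18.5 against E11.5, a difference of -2.31 ± 0.37 (adjusted p = 0.0007), and no single array decided the call. Its value on the E12.5 array was far below both E11.5 arrays, while that of 1428136_at was close to them. Over the span the 5 probe sets all had negative differences, and 1460187_at alone was called.

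Sfrp4 and Sfrp2, Wnt-binding proteins of the same family, were lower at E18.5 than at E11.5. Sfrp4 (1451031_at) had 119 and 150.1 at E11.5, 129 at E12.5, 121 and 102 at E14.5, 99.1 and 26.3 at E16.5 and 68.3 and 35.4 at E18.5. Both E18.5 arrays lay below both E11.5 arrays, and E16.5 replicate 2 was the lowest of all. The difference was -1.19 ± 0.39 (adjusted p = 0.0412). The call did not hold without E11.5 replicate 1 (adjusted p = 0.0914), E11.5 replicate 2 (0.179), E14.5 replicate 1 (0.0542), E14.5 replicate 2 (0.0533) or E18.5 replicate 2 (0.246). It was also lost with log2(signal + 1) (adjusted p = 0.0629), no filter (0.096), no intensity trend (0.0824) or signals as deposited (0.0718). Sfrp2 (1448201_at) had 303 and 258 at E11.5, 109 at E12.5, 152 and 234 at E14.5, 197 and 127 at E16.5 and 181 and 120.5 at E18.5. It fell by less than 1 log2 unit, -0.85 ± 0.27 (adjusted p = 0.0352), with the E18.5 and E11.5 arrays apart, and is named here after its values were seen. Without E11.5 replicate 1, E11.5 replicate 2 or E18.5 replicate 2 its adjusted p was 0.155, 0.065 or 0.247. The call was also lost with no filter (adjusted p = 0.0678), no intensity trend (0.0762), quantile normalization (0.0637) or signals as deposited (0.0643). Sfrp5 passed no test, with 81.2 and 60.8 at E18.5 against 48.0 and 81.5 at E11.5 (adjusted p = 0.792).

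Dkk3, the most divergent of the Dickkopf proteins, was the only antagonist that rose at E18.5 against E11.5. It had 48.7 and 28.8 at E11.5, 52.5 at E12.5, 80.0 and 51.9 at E14.5, 60.8 and 116 at E16.5 and 106 and 103 at E18.5 with 1448669_at. Both E18.5 arrays lay above both E11.5 arrays, and the highest array was an E16.5 one. The E18.5 minus E11.5 difference was 1.17 ± 0.33 (adjusted p = 0.0181), and the call was lost without E11.5 replicate 2 (adjusted p = 0.129), E18.5 replicate 1 (0.0876) or E18.5 replicate 2 (0.0729). The other Dkk3 probe set, 1417312_at, was too dim to be tested and pointed the other way. It had 10.1 and 20.5 at E18.5, neither above background, against 36.3 and 45.0 at E11.5, both above it, which makes it at least 1.70-fold lower at E18.5 with no test. Dkk1, which blocks the Lrp co-receptors, had 54.3 and 55.1 at E11.5, 77.4 at E12.5, 32.3 and 42.3 at E14.5, 30.5 and 15.8 at E16.5 and 19.7 and 25.4 at E18.5. Its E18.5 arrays lay below its E11.5 arrays and at each of E16.5 and E18.5 at least 1 array was not above background, with adjusted p = 0.0892 over the span.

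Between neighbouring stages few members were called. At E14.5 against E11.5, 1 of 26 genes was lower, Fzd8, where 2.13% of all genes were, and 0 were higher, where 3.48% were (limma; 4 and 0 at an unadjusted p under 0.05). Over probe sets, 2 of 44 were lower there, Fzd8 and Fzd4 1434756_at, where 1.89% of all were, and 0 were higher, where 2.73% were. The Fzd4 difference of -0.94 ± 0.25 (adjusted p = 0.0463) missed the threshold under 15 of 18 alternatives, among them leaving out any 1 of the 8 arrays of the replicated stages (adjusted p between 0.0549 and 0.202). At E16.5 against E14.5, 1 gene was higher, Sfrp1, where 1.16% of all were, and 0 were lower, where 2.53% were (4 and 2 unadjusted). Over probe sets, 2 were higher, Sfrp1 1428136_at and Fzd2 1418532_at, where 1.11% of all were, and 0 were lower, where 1.96% were. These stages shared a wash run, and a fit of their 4 arrays alone called both. At E18.5 against E16.5, 0 genes were higher and 0 lower, where 0.842% and 0.271% of all were (0 and 3 unadjusted, the 3 being Wnt5a, Fzd7 and Sfrp1). The only probe set called there was Wnt5a 1436791_at, lower, where 0.2% of all were lower and 0.614% higher.

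On E12.5 replicate 1, 12 of the 44 member probe sets had their highest signal of the 9 arrays, or 27.3%, where 22.3% of all tested probe sets did. They included both Wnt4 probe sets, the Wnt5a probe sets 1436791_at, 1437673_at and 1448818_at, Wnt5b, Wnt11 and Fzd2 1418534_at. Wnt5b had 429 there, where its other arrays lay between 63.8 and 175, and Fzd2 1418534_at had 486, where its others lay between 232 and 351. Another 4 probe sets, 9.09%, had their lowest signal there, where 15.8% of all did, Sfrp1 1460187_at and Sfrp2 among them. With this array added as a stage, the limma F test called 9 of 26 genes, or 34.6%, where 35.5% of all were called, and the 3 added were Fzd2, Wnt4 and Wnt5b. With the raised Actb ratio of this array and no usable second array, the part of RNA quality in these values was not tested.

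The genes around the ligands and receptors also moved in both directions. Counting each listed gene once, 12 of 72 tested pathway genes rose and 17 fell at E18.5 against E11.5, where 13.3% and 16.4% of all genes did, with a median difference of -0.20. Of the Wnt secretion genes, 0 of 3 rose and 2 fell, Porcn, the enzyme that attaches the lipid to Wnts (-1.99 ± 0.38, adjusted p = 0.00212), and Wls, which carries Wnts to the cell surface (-0.59 ± 0.20, adjusted p = 0.0445). Porcn had 24.6 and 2.40 at E18.5 against 73.6 and 115 at E11.5, with 1 of the 2 E18.5 arrays above background and no overlap. Of 6 co-receptors and alternative receptors 0 rose and 1 fell, Ror1, a receptor for Wnt5a (-1.71 ± 0.29, adjusted p = 0.000994), with 35.0 and 27.2 at E18.5 against 144 and 131 at E11.5. Among 8 R-spondin, Lgr and Frizzled ubiquitin ligase genes, 2 rose and 1 fell. Lgr5, an R-spondin receptor, rose most of the listed genes (3.16 ± 0.21, adjusted p = 4.61e-07), with 574 and 604 at E18.5 against 46.5 and 57.3 at E11.5. Rnf43, a ligase that removes Frizzleds from the membrane, was at 93.3 and 37.2 at E18.5 and not above background on either E11.5 array, which makes it at least 2.71-fold higher (adjusted p = 0.0175). Lgr4, another R-spondin receptor, fell (-1.38 ± 0.22, adjusted p = 0.000559).

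Of 10 other extracellular modulators 1 rose and 5 fell, beside 13.3% and 16.4% of all genes, the background for each list below. Apcdd1, a membrane inhibitor of Wnt signalling, rose (2.08 ± 0.22, adjusted p = 3.24e-05), and Tspan12, a partner of Fzd4 in Norrin signalling, fell most (-2.56 ± 0.30, adjusted p = 6.77e-05), followed by the glypican Gpc6 (-2.23 ± 0.25, adjusted p = 4.91e-05). Tspan12 had 60.0 and 53.5 at E18.5 against 524 and 322 at E11.5, so it was lower in the same contrast as its receptor. In the destruction complex, which marks beta-catenin for removal, 1 of 10 rose, the scaffold Axin2 (1.47 ± 0.24, adjusted p = 0.000776), and 3 fell, led by the kinase gene Csnk1a1 (-1.15 ± 0.23, adjusted p = 0.00241) and Amer1 (-1.06 ± 0.26, adjusted p = 0.00986). Of 8 Dishevelled genes and regulators 4 rose, led by Ccdc88c (1.60 ± 0.29, adjusted p = 0.00153) and Dvl1 (1.09 ± 0.27, adjusted p = 0.0103), and 1 fell, Dact1 (-0.92 ± 0.25, adjusted p = 0.0164). Of 10 nuclear effectors 2 rose, the co-repressor Tle3 (0.89 ± 0.23, adjusted p = 0.0135) and the beta-catenin inhibitor Ctnnbip1 (0.83 ± 0.23, adjusted p = 0.0168). The 3 that fell were the DNA-binding partners of beta-catenin Lef1, Tcf7l1 and Tcf7l2, led by Lef1 (-1.43 ± 0.26, adjusted p = 0.00152) and Tcf7l1 (-0.97 ± 0.31, adjusted p = 0.0349). None of 11 planar cell polarity genes was called over the span by limma.

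Of 13 tested genes that canonical signalling is known to raise, 6 rose and 2 fell at E18.5 against E11.5. Of all genes tested, 13.3% rose and 16.4% fell. The 6 were Axin2, Nkd1, Sp5, Lgr5, Rnf43 and Fst, led by Lgr5 and Axin2, and the 2 were Lef1 and Msx1 (-1.01 ± 0.27, adjusted p = 0.0151). Axin2 had 455 and 496 at E18.5 against 137 and 190.5 at E11.5, with no overlap. The median difference of the 13 was 0.36, beside -0.00 over all genes tested. Lgr5 and Fst are also on the list of pregranulosa markers, and Axin2, Nkd1, Lgr5, Rnf43 and Lef1 each stand on another pathway list as well.

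**Figure D4:**
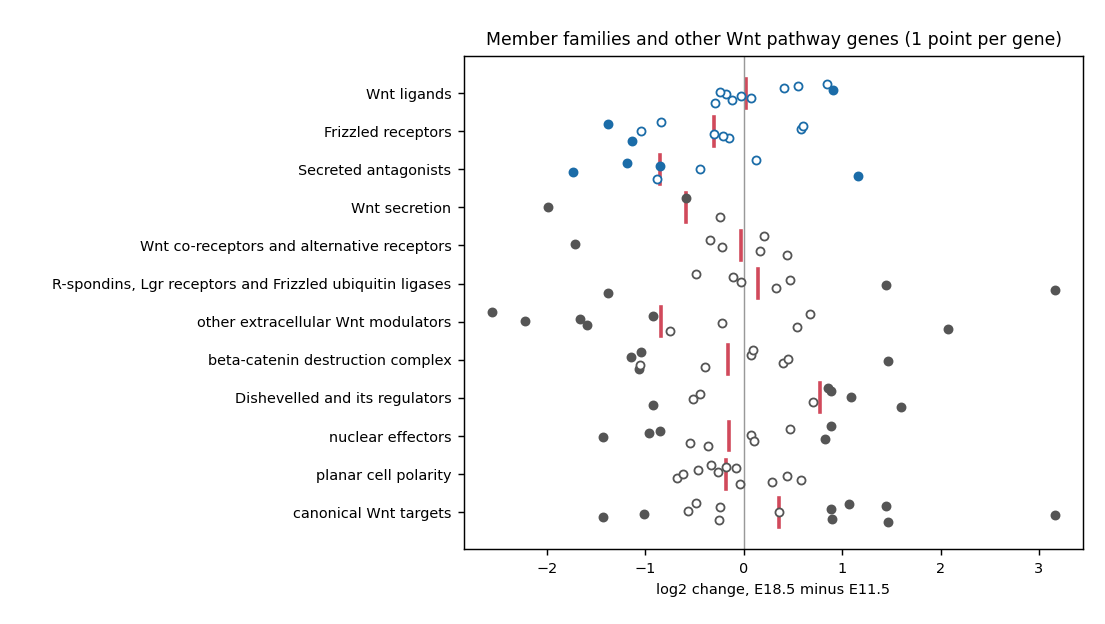
Log2 difference in scaled signal (with 16 added) between E18.5 and E11.5 for each tested gene of the 3 member families (blue) and the pathway lists (grey), 1 row of points per list, with called genes filled and a red bar at the median of each row. Lgr5, Apcdd1 and Ccdc88c lie farthest to the right, Tspan12, Gpc6 and Porcn farthest to the left, and no planar cell polarity gene was called.

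Marker genes of several cell types moved over the same span as the members. The summed scaled signal of 8 germ cell markers was 9871 to 10100 at E18.5 against 1451 to 1761 at E11.5, and 7 of the 8 rose and 1 fell. That of 8 pregranulosa markers was 3217 to 3441 at E18.5 against 1352 to 1661 at E11.5, with 6 up and 1 down. That of 8 endothelial markers was 629.7 to 688 at E18.5 against 1219 to 1561 at E11.5, with 0 up and 5 down. Of the 24 markers of these 3 lists, all were above background on both arrays at E11.5, and 23 were at E18.5, the exception being a germ cell marker. The sum of 5 erythroid markers was 1116 to 1146 at E18.5 against 20770 to 27780 at E11.5, with 1 up and 3 down. The 5 were Hba-x, Hbb-bh1, Hbb-y, Alas2 and Klf1, of which the first 3 are embryonic globin genes. Whether this sum follows the number of erythroid cells was not tested. Genes of other organs moved too. The sum of 6 hepatocyte markers was 3098 to 3317 at E18.5 against 154 to 157 at E11.5, and all 6 rose, with Ttr and Fgb not above background at E11.5. The sum of 6 exocrine pancreas markers was 152 to 228 at E18.5 against 1100 to 1556 at E11.5, with 2 of 4 tested down and Cpa1 and Pnliprp2 not above background at E18.5. For 6 mesonephros and duct markers it was 242 to 306 at E18.5 against 165 to 204 at E11.5, with 1 of 4 tested up, Lhx1 not above background at either stage, and Gata3 and Emx1 not above it at E11.5. For 8 stroma markers the sums were 7403 to 7958 at E18.5 against 7354 to 8103 at E11.5, with 3 up and 4 down. Coelomic and surface epithelium markers summed to 3957 to 4329 at E18.5 against 4562 to 6025 at E11.5. Of 7 tested, 3 were up and 2 down, and Lhx2 was not above background at E11.5. Of 3 smooth muscle markers tested 1 was up and 0 down, of 5 leukocyte markers 0 up and 1 down, and of 3 neuronal markers 0 either way. For 6 testis somatic cell markers the sums were 282 to 315 at E18.5 against 151 to 177 at E11.5, and both of the 2 tested rose. Among them Amh was not above background at either stage, Dhh not at E18.5 and Sox9 not at E11.5. The part of cell makeup or of carried-over tissue in the changes of Wnt6, Wnt5a, the Frizzleds and the antagonists was not tested.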

How the data were processed

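The deposited value table held 1 intensity per probe set on a linear scale, with no detection call. The authors had scaled it: on all arrays the mean came to 125 once 2% of the values was trimmed from either end. Trizol extraction and single cycle labelling are given by the labels, while for the signals no software was given in the sources used here. Other content, wash and scan settings, came from the deposited experiment files, whose hybridization dates define the wash runs. The labels call the 2 arrays of a stage independent preparations, and the number of arrays limits the precision.

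Each of 9 arrays was scaled to a 75th percentile of 137.5 and taken as log2 of the signal plus 16, which understates changes of dim probe sets. Of 45101 probe sets, 64 controls were left out, and those at or above the median of 46.3 on at least 2 arrays, 27510 in all, were tested with limma 3.58.1 in R 4.3.3 (a mean for each stage, eBayes with intensity-trended variance, 4 residual and 9.29 prior degrees of freedom). Tests were two-sided, with Benjamini-Hochberg adjustment over all probe sets and a threshold of 0.05. Each gene was represented by its brightest tested probe set, the highest by mean of log2(signal + 16), and the mean signal was an alternative chosen after seeing the data. Where neither array of a stage was above background, a fold is given as a bound against the background level. Gene symbols came from the platform annotation: 34945 probe sets had 1 symbol and 932 several. All 39 member genes matched the GRCm38.p6 gene table by gene identifier. Summaries used pandas 2.3.3 and numpy 2.4.6 under Python 3.11.15, and matplotlib 3.10.9 drew the plots. The test of E18.5 against E11.5 was also tested on simulated data.

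The members, the pathway and marker lists and the rule for named genes were chosen with earlier results of these data known. Named with all values were genes whose brightest probe set passed a test and spanned at least 1 log2 unit over the 4 replicated stages. Others were named where probe sets disagreed or where a gene was detected at every stage, and from each pathway list the 2 largest called changes each way. Wnt3a, Wnt10a and Dkk1 met none of these conditions and were given as well. Replicate numbers did not pair the samples, since the deviations of same-numbered arrays correlated between -0.0732 and 0.0362. Alternatives covered the scaling, the added constant, the filter, the variance trend, the choice of probe set, all 10 arrays, the replicate block, the wash run and leaving out each array.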

Additional observations from a re-analysis of the deposited data

Results flagged for a closer look

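E12.5 replicate 2, which no comparison uses, held member signals above its own background. On that array the control probe sets with no added target reached 203.3 (95th percentile, deposited signal), and 15 member probe sets lay above it. The highest was Sfrp1 1438620_x_at at 700.4, followed by Fzd1 at 396.6 and Fzd10 1455689_at at 368.3. Sfrp1 1460187_at had 316.7, Wnt5b 1439373_x_at had 315 and Sfrp1 1428136_at had 289.2. Fzd3 1434788_at stood at 286.4, Sfrp4 at 265.1, Fzd4 1419301_at at 243.2 and Fzd6 1458904_at at 242.7. Wnt6 1435980_x_at had 222.9, Fzd2 1418534_at 220.7 and Wnt11 217.4. Wnt5a 1456976_at had 208.7 and Fzd2 1418533_s_at 208.2, both just above the background level. Neither probe set of Wnt4 was above background on this array, although both were on the other 9. The spiked controls had a median of 23134 there, against 770.4 to 2380 on the other arrays, so these values are given only as what the array holds.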

How the results depend on the processing

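None of the 18 named probe set results, each a called contrast, reversed under the alternatives applied to it. The choice of probe set was not among those alternatives. With all 10 arrays, E12.5 replicate 2 included, 0 member genes were called over the 4 stages or in any contrast. Limma's unadjusted p was then under 0.05 for 2 of 29 genes over the stages, and for 1 higher and 6 lower at E18.5 against E11.5. Over all probe sets the calls dropped to 165, where 6702 stood with 9 arrays, so the added array decides them. At E18.5 against E11.5, 2 higher and 5 lower genes became 4 and 3 on signals as deposited, and 3 lower without the filter. Of all called probe sets 44.8% were higher, and 56.7% on signals as deposited. Leaving out 1 array gave 0 to 3 higher and 2 to 5 lower genes there. It gave 0 higher without either E18.5 array, 1 higher without either E11.5 array, and 2 lower without E11.5 replicate 1. At E14.5 against E11.5 the 1 lower gene became 0 without the filter and 0 to 2 with an array left out. At E16.5 against E14.5 the 1 higher gene became 0 without the intensity trend, 2 with quantile normalization and 0 to 2 with an array left out, and lower genes ran from 0 to 1, the 1 without E16.5 replicate 1. With the most variable probe set for each gene, or that of highest mean signal (chosen after seeing the data), 1 gene was lower at E18.5 against E16.5. The replicate block gave 7 genes over the stages, 3 higher and 6 lower at E18.5 against E11.5, and among 18 named probe set results it ended only Fzd4 1434756_at at E14.5 against E11.5 (adjusted p = 0.0539). An F test over 5 stages gave 9 genes. Calls for E18.5 against E11.5 of Fzd1, Fzd7, Fzd2 1418533_s_at, Fzd4 1434756_at, Sfrp1 1460187_at, Wnt5a 1436791_at and Wnt6 1435980_x_at were lost only with all 10 arrays. Apart from that array, the cause of these shifts was not tested. At E16.5 and at E18.5, Dkk1 1420360_at was above background on 1 of the 2 arrays, and Sfrp4 was on 1 of 2 at E16.5. With 2 arrays a stage, the part of signal near background in their changes was not tested.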
